A study of Mus musculus with 16 samples.

Results

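The heat shock response and the unfolded protein response were followed through 38 mouse genes, chosen by name from both pathways. A probe was counted for a gene where its annotation named that gene and no other. Of the 38 genes, 35 had such a probe, 50 probes in all, among 19640 genes measured this way. For the other members, Hsp90ab1, Hspe1 and Hsf1, expression was not analysed here. The cells were 3T3-L1, a clonal mouse preadipocyte line that hormones can turn into adipocytes, so the replicates are samples of 1 line. They received dex (dexamethasone, a synthetic glucocorticoid) for 36 h, its solvent DMSO for 36 h, dex for 2 h or DMSO for 2 h, with 4 biological replicates in each group. No dex dose or other additive of the medium is stated in the sources used here. The study's title places the treatment in the commitment to adipogenesis. Each of the 16 arrays compared 1 sample in Cy5 with a pool of samples in Cy3, and each probe's value is the log of sample signal over pool signal. The log base is not given and was read as 2; with the natural log, every log2 change below would be larger by 1 constant factor.

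Cells keep their proteins folded with chaperones. In the cytosol, heat and other stress release the transcription factor HSF1, which turns on genes for HSP70, HSP90, HSP40 and small heat shock proteins. In the endoplasmic reticulum (ER), unfolded proteins are sensed by IRE1 (the product of Ern1), ATF6 and PERK. IRE1 splices the Xbp1 message, ATF6 is cleaved to a transcription factor, and PERK slows translation while favouring that of ATF4. ATF6 and XBP1 raise ER chaperones and ER-associated degradation (ERAD), which returns misfolded proteins to the proteasome, and ATF4 raises genes such as Chac1 and Trib3. Mitochondria hold their own chaperonin, made of the products of Hspd1 and Hspe1. HSP90 and HSP70 also hold the glucocorticoid receptor in the state that binds its ligand.

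The arrays at 36 h were mostly quieter than those at 2 h. The SD of an array's residuals over all probes was 0.122 to 0.205 in dex 36 h and 0.108 to 0.151 in DMSO 36 h, against 0.168 to 0.333 in dex 2 h and 0.183 to 0.435 in DMSO 2 h. Replicate 4 of DMSO 2 h stood apart, with a mean correlation of -0.104 with its group, so results at 2 h are also given without it. The lowest correlation between any arrays was -0.338, of dex 36 h replicate 1 with DMSO 36 h replicate 2, and 2 pairs lay under -0.3. Cy5 is the sample dye on every array per the labels, so no sign was turned. Fkbp5, a glucocorticoid target that encodes an HSP90 co-chaperone, checked the labels. It read 0.78 to 1.16 in dex 36 h, against -2.30 to -1.93 in DMSO 36 h, and 0.72 to 0.94 in dex 2 h, against -1.75 to -1.20 in DMSO 2 h, on the log2 ratio scale. Tsc22d3 and Per1 were read for the same check. On 1 of its 4 probes, Tsc22d3 had log2 changes in dex of 2.43 at 36 h and 2.76 at 2 h, with groups apart. Per1 had 1.06 at 2 h (limma adjusted p = 0.00128). At 36 h Per1 had 0.48, with overlapping groups, and did not pass (limma adjusted p = 0.0856). Of the preadipocyte markers, 4 of 8 measured (Pdgfrb, Dlk1, Col1a1 and Col1a2) passed as lower in dex at 36 h and 1 of 8 (Pdgfrb) at 2 h. Of the mature adipocyte markers, 1 of 9 (Pnpla2) passed as higher at 36 h and 0 of 9 at 2 h in limma. At 2 h 1 of 9 had an unadjusted p under 0.05, against 2714 of all 19640 genes. Of 8 macrophage, 8 endothelial and 7 epithelial markers, 1 of each list passed at 36 h, with Lyz2 lower and Flt1 and Krt8 higher. Of all 19640 genes, 6.88% passed as higher and 4.96% as lower at 36 h, and 1.97% and 1.21% at 2 h. Ratios to a pool hold no absolute level, so neither the presence of a marker nor a summed level can be read, and the part of these markers in the results below was not tested.

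The first comparison asked how the pathways stood after 36 h of dex. Dex cells had more of 3 cytosolic chaperone messages (Hspa8, Hsph1, Hsp90aa1), the mitochondrial chaperonin message Hspd1, the small heat shock message Cryab and the ER genes Pdia6 and Hyou1. They had less of the small heat shock message Hspb1 and of the ATF4 target Chac1. Trib3, another ATF4 target, passed as lower on only 1 of its 4 probes. Hspa5, the ER chaperone BiP whose rise is the usual sign of an unfolded protein response, did not pass. A gene passed where at least 1 of its probes had an adjusted p under 0.05 in limma (Benjamini-Hochberg over all probes). By this rule 7 of 35 members were higher, against 6.88% of all genes measured, and 3 of 35 were lower, against 4.96% of all genes. In limma an unadjusted p under 0.05 was reached by 14 of 35 members, against 5235 of all 19640 genes. The median log2 change of the 35 was 0.08, against -0.0012 over all genes. Below, rose and fell mean higher and lower in dex than in DMSO at the same time. In bulk RNA, fewer cells with a message and less message per cell cannot be told apart.

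**Figure D1:**
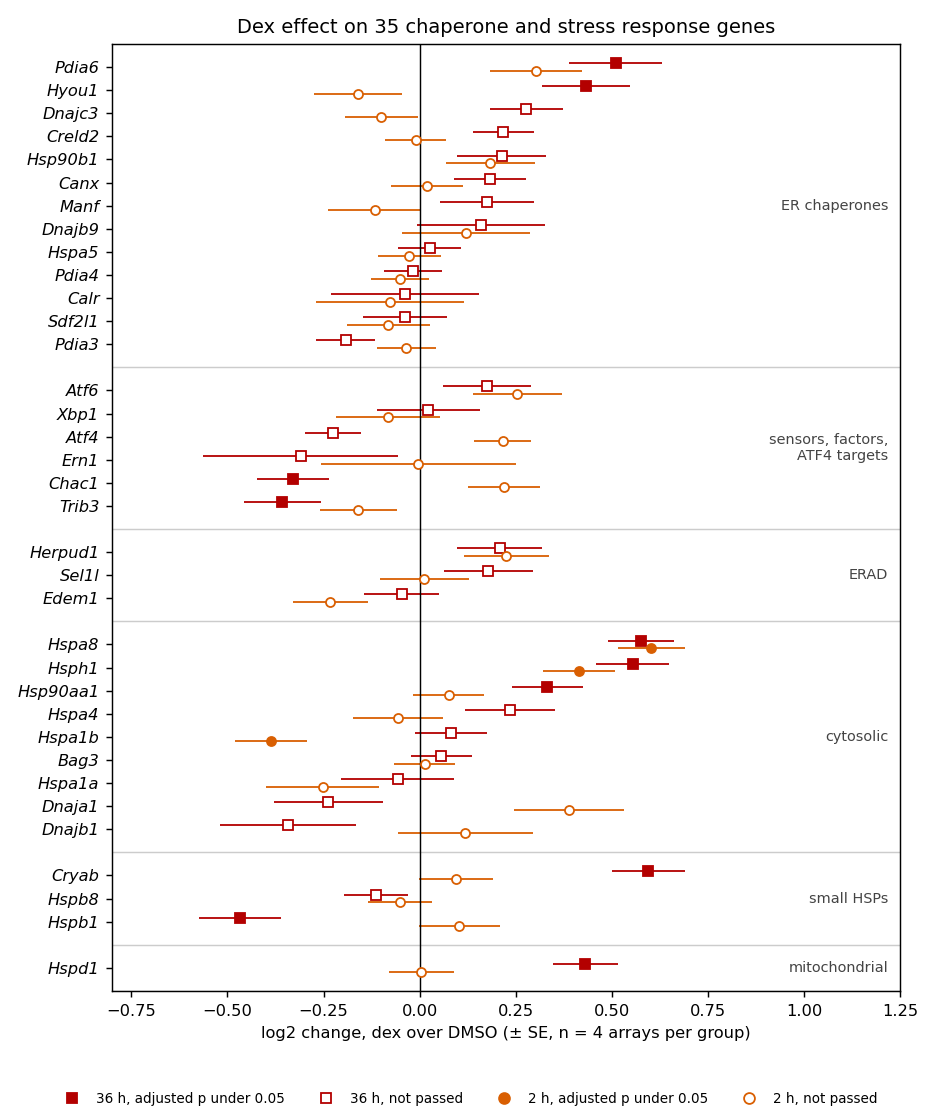
Log2 change of dex over DMSO for the quoted probe of each of the 35 measured members, grouped by role, at 36 h (red squares) and 2 h (orange circles); bars are ± 1 SE of the fitted difference, n = 4 arrays per group, and filled symbols have an adjusted p under 0.05. Filled squares lie on both sides of 0, and Hspa8 and Hsph1 are filled on the right at both times.

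Of the 9 cytosolic chaperones and co-chaperones, 3 rose and 0 fell at 36 h in limma, and these 3 were also all those with an unadjusted p under 0.05. Hspa8 encodes HSC70, the constitutive cytosolic HSP70. Its log2 ratios were 0.60, 0.30, 0.47 and 0.48 in the 4 dex 36 h arrays, against -0.16, -0.17, -0.00034 and -0.12 in DMSO 36 h. All dex arrays lay above all DMSO arrays, and the change was 0.58 ± 0.09 (1.49-fold; SE, n = 4 per group, limma adjusted p = 4.83e-04). The other Hspa8 probes passed too, with log2 changes of 0.31 and 0.34. Hsph1 encodes HSP110, which recharges HSP70 with nucleotide. It read 0.26, 0.43, 0.39 and 0.21 in dex 36 h, against -0.27, -0.19, -0.08 and -0.39 in DMSO 36 h. The groups did not overlap, and the log2 change was 0.55 ± 0.09 (1.47-fold, limma adjusted p = 0.00133). Hsp90aa1 encodes the inducible cytosolic HSP90. It read 0.12, 0.26, -0.12 and 0.03 in dex 36 h, against -0.22, -0.30, -0.16 and -0.36 in DMSO 36 h. Dex replicate 3 lay close to the highest DMSO array, and the log2 change was 0.33 ± 0.09 (limma adjusted p = 0.0347). The other Hsp90aa1 probes gave log2 changes of 0.36 and 0.28 and did not pass, and without dex 36 h replicate 1 or 2 or DMSO 36 h replicate 1, 2 or 4 the adjusted p was 0.0715 to 0.108.

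The remaining 6 cytosolic members did not pass at 36 h. The stress-inducible HSP70 genes, which HSF1 turns on strongly after heat, were among them. Hspa1b had a log2 change of 0.08 (95% interval -0.12 to 0.28) and Hspa1a one of -0.06 (-0.37 to 0.26). Their sequences are nearly identical, so signal may be shared between their probes. Bag3, an HSP70 co-chaperone, had a log2 change of 0.06 (-0.11 to 0.22). The HSP40 gene Dnajb1, also heat-inducible, read -0.75, -0.05, -1.23 and -0.53 in dex 36 h, against -0.33, -0.18, -0.28 and -0.40 in DMSO 36 h. The dex arrays lay on both sides of the DMSO arrays, and the log2 change of -0.34 had a limma adjusted p of 0.287. Dnaja1, another HSP40, had a log2 change of -0.24 and Hspa4, an HSP110 relative, 0.24.

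**Figure D2:**
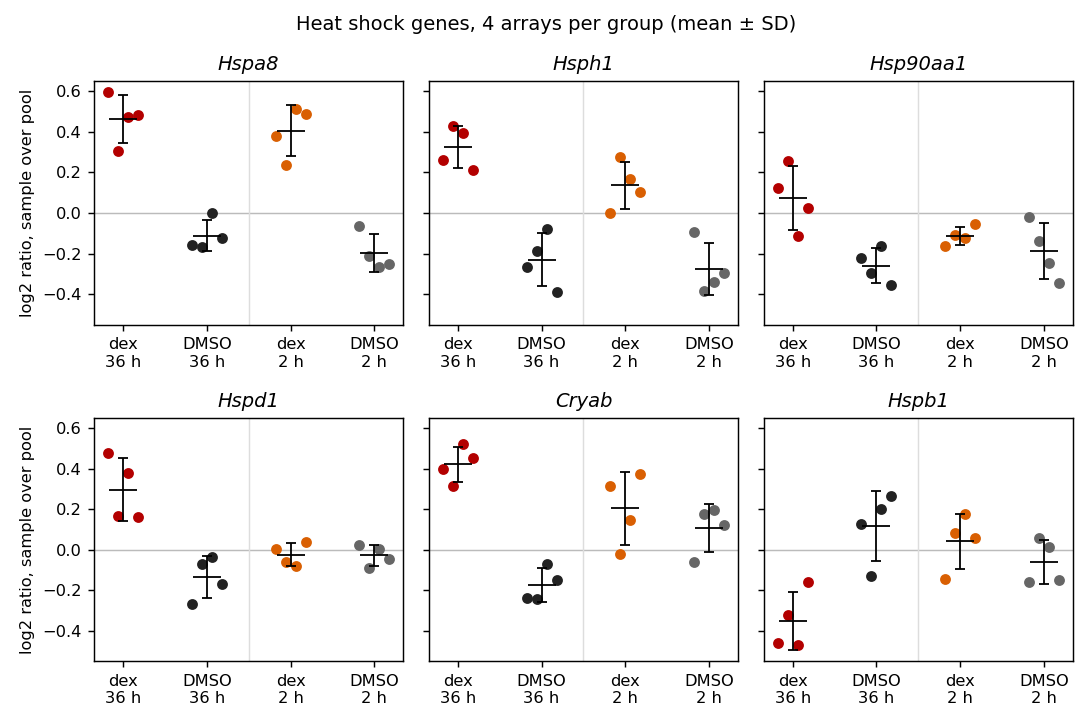
Log2 ratio of sample over pool (vertical axis) for 6 heat shock genes in every array of dex 36 h, DMSO 36 h, dex 2 h and DMSO 2 h; points are arrays, and bars are the mean ± SD of 4 arrays. Hspa8 and Hsph1 are higher in dex at both times, Hsp90aa1, Hspd1 and Cryab are apart at 36 h, and Hspb1 is lower in dex at 36 h.

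Heat shock elements, the inverted repeats that HSF1 binds, were looked for in the promoters. RefSeq windows of 300 bases on build GRCm38.p6, from 250 before to 50 after a gene's start, were found for 30 of the 38 members in 35 windows. Hyou1, Hsp90ab1, Hsf1, Hsp90aa1, Cryab, Atf6, Manf and Hspa8 are the others. The letters GAANNTTCNNGAA, on either strand, were in 4 member windows (11.4%), those of Hsph1, Hspd1 and Hspe1, and in 0.603% of all 32851 windows. Hsph1 counts here with overlapping windows from different starts, which hold the same bases of the match. Another Hspd1 window, from a different start, holds no match. Hsph1 and Hspd1 are also among the members that rose, and 1 window of each with a match is shown for that reason. Each is printed up to 30 bases after the start, 5′ to 3′ along the gene, with matches on either strand in capitals. The match of Hsph1 lies at bases 16 to 28 counted from its start, and those of Hspd1 lie at -144 to -132 and -139 to -127 and overlap.
Hsph1, chr5:149636286-149636565, minus strand: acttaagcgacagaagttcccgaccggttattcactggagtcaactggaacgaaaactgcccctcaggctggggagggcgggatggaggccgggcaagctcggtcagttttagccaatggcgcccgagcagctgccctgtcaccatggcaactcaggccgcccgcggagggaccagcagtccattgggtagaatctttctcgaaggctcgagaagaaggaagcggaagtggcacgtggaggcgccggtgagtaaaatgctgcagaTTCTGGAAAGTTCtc
Hspd1, chr1:55087903-55088182, minus strand: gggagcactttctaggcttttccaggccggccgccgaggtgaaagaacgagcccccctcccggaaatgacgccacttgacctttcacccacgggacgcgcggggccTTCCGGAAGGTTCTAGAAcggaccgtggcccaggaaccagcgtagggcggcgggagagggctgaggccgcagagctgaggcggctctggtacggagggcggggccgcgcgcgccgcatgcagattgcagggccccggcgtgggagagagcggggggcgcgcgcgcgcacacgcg
Hspe1 starts on the opposite strand of the same stretch, so its matches are the same bases. A match describes the letters alone.

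Of the 3 small heat shock genes, 1 rose and 1 fell at 36 h. Cryab encodes alpha B-crystallin, which holds unfolding proteins in solution. It read 0.40, 0.32, 0.52 and 0.45 in dex 36 h, against -0.24, -0.24, -0.07 and -0.15 in DMSO 36 h. The groups were widely apart, and the log2 change was 0.59 ± 0.10 (1.51-fold, limma adjusted p = 7.98e-04). Hspb1 encodes HSP27, a related holding chaperone. It read -0.46, -0.32, -0.47 and -0.16 in dex 36 h, against 0.13, -0.13, 0.20 and 0.27 in DMSO 36 h. All dex arrays were below all DMSO arrays, the closest being dex replicate 4 and DMSO replicate 2, and Hspb1 fell by 0.47 ± 0.11 on the log2 scale (limma adjusted p = 0.0112). Hspb8, a partner of Bag3, did not pass, with a log2 change of -0.11 (95% interval -0.29 to 0.06).

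The mitochondrial chaperonin was seen through Hspd1 alone, which encodes HSP60. It read 0.48, 0.17, 0.38 and 0.16 in dex 36 h, against -0.27, -0.07, -0.04 and -0.17 in DMSO 36 h. Dex arrays were all above DMSO arrays, with replicates 1 and 3 highest, and the log2 change was 0.43 ± 0.08 (1.35-fold, limma adjusted p = 0.00419). At 36 h the changes of Hspa8, Hsph1, Cryab and Hspd1 passed under all 26 alternative settings, which include leaving out each array.

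Of the 13 ER chaperones and folding enzymes, 2 rose and 0 fell at 36 h in limma. An unadjusted p under 0.05 was reached by 5 of them, against 5235 of all 19640 genes. Pdia6 encodes a protein disulfide isomerase, which forms and reshuffles disulfide bonds. It read 0.20, 0.23, 0.30 and 0.53 in dex 36 h, against -0.22, -0.25, -0.11 and -0.19 in DMSO 36 h. The groups did not overlap, and the log2 change was 0.51 ± 0.12 (1.42-fold, limma adjusted p = 0.0148; 0.0513 without DMSO 36 h replicate 2). Hyou1 encodes GRP170, an ER relative of HSP110. It read 0.41, 0.22, 0.40 and 0.32 in dex 36 h, against -0.04, -0.07, -0.05 and -0.23 in DMSO 36 h. Its groups were apart too, and the log2 change was 0.43 ± 0.11 (limma adjusted p = 0.0285). Without dex 36 h replicate 1 or 3, or any of the 4 DMSO 36 h arrays, the adjusted p of Hyou1 was 0.0554 to 0.0941.

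The other 11 ER chaperones had log2 changes between -0.19 and 0.28 and adjusted p from 0.088 to 0.981. Hspa5 (BiP), the HSP70 of the ER, read 0.11, -0.14, -0.04 and -0.04 in dex 36 h, against -0.16, -0.05, 0.05 and -0.06 in DMSO 36 h. The groups overlapped, and the log2 change was 0.03 (95% interval -0.15 to 0.20). Pdia4, a disulfide isomerase, gave -0.02 (-0.18 to 0.14), Sdf2l1, an ER stress-inducible ER protein, -0.04 (-0.27 to 0.19), and the lectin chaperone Calr -0.04 (-0.45 to 0.37), which is a wide interval. Canx, the membrane-bound lectin chaperone, gave 0.18 (-0.02 to 0.38) and Hsp90b1, the HSP90 of the ER, 0.21 (-0.03 to 0.46). Dnajc3, an ER HSP40 also known as p58IPK, gave 0.28 (0.07 to 0.48), and Creld2, an ER protein induced by ER stress, 0.22 (0.05 to 0.39). Their intervals lie above 0, but the adjusted p were 0.088 and 0.111. Dnajb9, an ER HSP40, gave 0.16, Manf, a secreted ER stress protein, 0.18, and Pdia3, the isomerase that works with the lectin chaperones, -0.19 (limma adjusted p = 0.145).

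The ER stress response element, which ATF6 binds with NF-Y, was looked for in the same windows. The letters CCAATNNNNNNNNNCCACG, on either strand, were in 7 member windows (20%), those of Hspa5, Hsp90b1, Calr, Canx, Pdia6, Dnajc3 and Creld2, and in 39 of all 32851 windows (0.119%). The members were chosen by name as genes of these pathways, so the shares of windows with either element are a description and not a test. Of these 7 genes only Pdia6 passed at 36 h. The matches are given 5′ to 3′ in the orientation of the element, with the fixed letters in capitals, so that the gene that passed can be set beside the 6 that did not.
Pdia6: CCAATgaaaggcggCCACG
Hspa5: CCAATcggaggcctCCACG
Hsp90b1: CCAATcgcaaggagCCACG and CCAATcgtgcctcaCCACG
Calr: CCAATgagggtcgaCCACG
Canx: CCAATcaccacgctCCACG
Dnajc3: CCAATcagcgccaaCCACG
Creld2: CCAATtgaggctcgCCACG
The windows of Pdia6 and Hspa5 are shown in full up to 30 bases after the start, with the element in capitals at -98 to -80 in Pdia6 and -65 to -47 in Hspa5.
Pdia6, chr12:17266339-17266618, plus strand: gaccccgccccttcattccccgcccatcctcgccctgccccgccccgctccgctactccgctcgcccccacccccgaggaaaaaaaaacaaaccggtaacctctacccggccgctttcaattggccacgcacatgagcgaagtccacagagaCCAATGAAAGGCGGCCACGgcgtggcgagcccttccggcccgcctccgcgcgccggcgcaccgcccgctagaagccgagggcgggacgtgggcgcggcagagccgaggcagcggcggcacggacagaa
Hspa5, chr2:34771840-34772119, plus strand: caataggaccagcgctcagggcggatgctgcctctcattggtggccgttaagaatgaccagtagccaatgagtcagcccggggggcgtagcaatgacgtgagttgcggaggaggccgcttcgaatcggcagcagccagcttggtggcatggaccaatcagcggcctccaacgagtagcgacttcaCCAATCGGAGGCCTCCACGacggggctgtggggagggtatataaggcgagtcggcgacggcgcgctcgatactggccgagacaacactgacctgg
No member window held the unfolded protein response element core TGACGTGG (0.676% of all windows) or the glucocorticoid response element core ACANNNTGT (6.85%). The C/EBP-ATF response element was searched only as TGATGNAAT, with a fixed last T. No member window held these letters either (0.965% of all windows). The windows of Chac1, Herpud1 and Trib3 hold them on the opposite strand with another last base. Absence of that element from these windows therefore cannot be read from this search. The other elements were searched by exact letters too, so the same limit holds for them. Member windows had a median GC content of 64.3%, against 52.7% over all windows.

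Of the 6 ER stress sensors, transcription factors and ATF4 targets, 0 rose and 2 fell at 36 h in limma. An unadjusted p under 0.05 was reached by 3 of them, against 5235 of all 19640 genes. Chac1 encodes an enzyme that breaks down glutathione and is an ATF4 target. It read -0.20, -0.20, -0.07 and -0.04 in dex 36 h, against 0.35, 0.27, 0.03 and 0.15 in DMSO 36 h. The dex arrays were all lower, with DMSO replicate 3 the closest, and Chac1 fell by 0.33 ± 0.09 on the log2 scale (limma adjusted p = 0.0403). The adjusted p was 0.0705 to 0.139 without dex 36 h replicate 1, 2 or 3 or DMSO 36 h replicate 1, 2 or 4, and 0.0518 and 0.0547 without dex 2 h replicate 3 or 4, which enter through the shared spread. Trib3 encodes a pseudokinase and is another ATF4 target. Its quoted probe read -0.18, -0.31, -0.09 and -0.04 in dex 36 h, against 0.28, 0.20, 0.11 and 0.21 in DMSO 36 h. The groups were apart, with a log2 change of -0.36 ± 0.10 (limma adjusted p = 0.0378), but the other 3 Trib3 probes gave 0.11, -0.23 and 0.14 and did not pass. The mean over its 4 probes changed by -0.08 (adjusted p = 0.605), and leaving out 1 array gave the quoted probe an adjusted p of up to 0.113. The arrays that ended its call were dex 36 h replicates 1 to 3, each DMSO 36 h array and dex 2 h replicates 3 and 4.

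Atf4 itself did not pass at 36 h, with log2 changes of -0.23, -0.32 and -0.23 on its 3 probes and adjusted p of 0.0729, 0.0858 and 0.393. Xbp1 read 0.09, 0.11, 0.13 and 0.17 in dex 36 h, against 0.07, 0.09, 0.14 and 0.12 in DMSO 36 h. The ranges overlapped within a few hundredths of a log2 unit, with a change of 0.02; these probes are not stated to tell spliced from unspliced Xbp1. The sensor genes Atf6 and Ern1 had log2 changes of 0.17 (95% interval -0.07 to 0.42) and -0.31 (-0.85 to 0.23). The other probe of each gave 0.02 for Atf6 and 0.0049 for Ern1. The 3 ERAD genes did not pass either, and 0 of them had an unadjusted p under 0.05 in limma: Herpud1, an organiser of the ERAD complex, gave 0.21, Sel1l, its scaffold, 0.18, and Edem1, which picks misfolded glycoproteins, -0.05. The other Edem1 probe gave 0.09.

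With array weights, which trust the quieter arrays more, 23 members passed at 36 h and not 10, while the submitters' log-odds rule passed 4 (Hspa8, Hsph1, Cryab and Hspd1). The number was 5 without DMSO 36 h replicate 2 and 6 without dex 36 h replicate 1 or DMSO 36 h replicate 1 or 4.

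**Figure D3:**
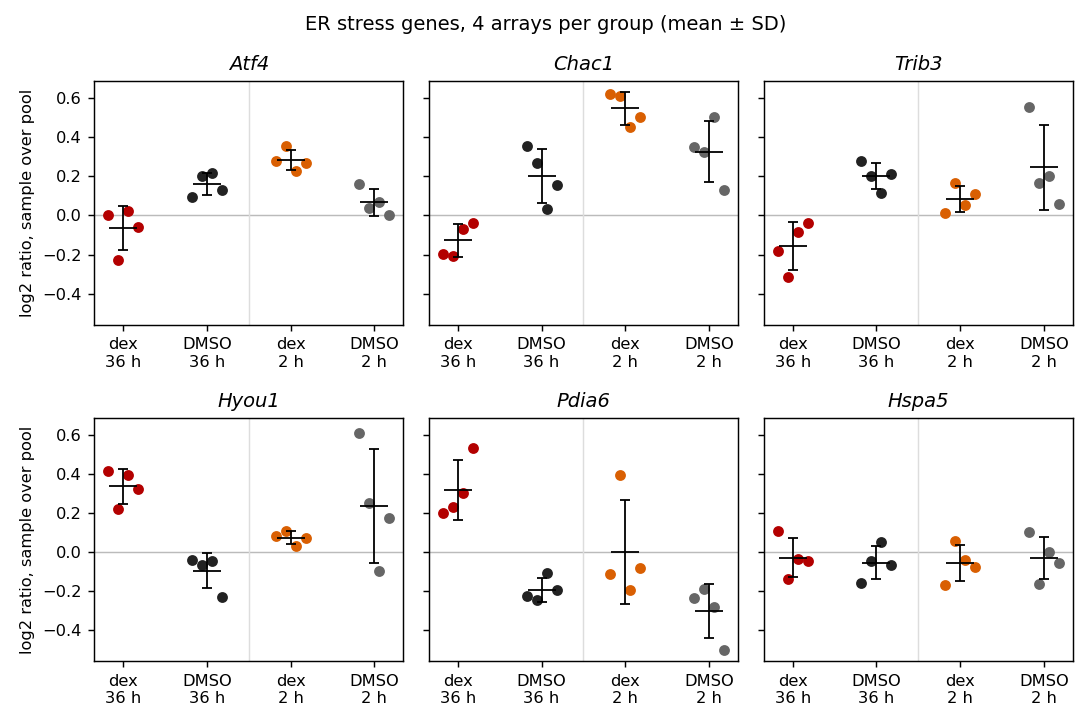
Log2 ratio of sample over pool (vertical axis) for 6 ER stress genes in every array of dex 36 h, DMSO 36 h, dex 2 h and DMSO 2 h; points are arrays, and bars are the mean ± SD of 4 arrays. The means of Atf4 and Chac1 are lowest in dex 36 h and highest in dex 2 h, Pdia6 and Hyou1 are higher in dex at 36 h, and the means of Hspa5 lie near 0 in all 4 groups.

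The second comparison asked what 2 h of dex did. Dex cells had more Hspa8 and Hsph1 and less Hspa1b, and no ER, mitochondrial or small heat shock member passed. In limma 9 of 35 members had an unadjusted p under 0.05, against 2714 of all 19640 genes. By the same rule as at 36 h 2 of 35 members were higher, against 1.97% of all genes, and 1 of 35 was lower, against 1.21%. The median log2 change of the 35 was 0.0036, against -0.012 over all genes.

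Hspa8 read 0.38, 0.24, 0.51 and 0.49 in dex 2 h, against -0.06, -0.21, -0.26 and -0.25 in DMSO 2 h. The groups did not overlap, and the log2 change was 0.60 ± 0.09 (1.52-fold, limma adjusted p = 6.65e-04). Its other probes gave 0.60 and 0.54 and also passed, and under all alternatives the adjusted p of the quoted probe stayed between 2.00e-04 and 0.0304. Hsph1 read -0.00058, 0.28, 0.17 and 0.11 in dex 2 h, against -0.09, -0.38, -0.34 and -0.29 in DMSO 2 h. Dex replicate 1 and DMSO replicate 1 were the closest pair, and the log2 change was 0.41 ± 0.09 (limma adjusted p = 0.0264). The adjusted p of Hsph1 was 0.0637 to 0.0867 without dex 2 h replicate 2, 3 or 4 or DMSO 2 h replicate 2 or 3, and 0.195 when only the arrays at 2 h were fitted. It was 0.0596 after quantile normalization and 0.0754 after scaling the arrays to equal median absolute deviation. Hspa1b, the inducible HSP70, read -0.50, -0.35, -0.46 and -0.52 in dex 2 h, against 0.10, -0.27, -0.18 and 0.07 in DMSO 2 h. All dex arrays were lower, and Hspa1b fell by 0.39 ± 0.09 on the log2 scale (limma adjusted p = 0.0402). This call ended without dex 2 h replicate 1, 3 or 4, DMSO 2 h replicate 1 or 4, dex 36 h replicates 1 to 4 or DMSO 36 h replicates 1 to 3 (adjusted p 0.0507 to 0.127), with the arrays at 2 h alone (0.32) and with array weights (0.152). Without DMSO 2 h replicate 4, the array that stood apart, Hspa8 and Hsph1 passed and Hspa1b did not, and without dex 2 h replicate 3 or 4 only Hspa8 did, 1 member.

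The other cytosolic members at 2 h had log2 changes between -0.25 (Hspa1a) and 0.39 (Dnaja1). Dnaja1 read -0.05, 0.27, -0.11 and -0.09 in dex 2 h, against -0.49, -0.82, -0.10 and -0.11 in DMSO 2 h. DMSO replicates 1 and 2 were far below the others, the groups overlapped, and the limma adjusted p was 0.286. The ER chaperones lay between -0.16 (Hyou1) and 0.30 (Pdia6). Pdia6 read -0.11, 0.39, -0.19 and -0.08 in dex 2 h, against -0.24, -0.19, -0.28 and -0.50 in DMSO 2 h, which overlap, with dex replicate 2 alone far above 0. Hspa5 changed by -0.03 on the log2 scale (95% interval -0.20 to 0.15). Hspd1 gave 0.0036 (-0.18 to 0.18), Cryab 0.09 (-0.11 to 0.30) and Hspb1 0.10 (-0.12 to 0.33). Edem1 and Herpud1 lay at -0.23 and 0.23 with adjusted p of 0.389 and 0.495.

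The third comparison asked whether the dex effect differed between 36 h and 2 h, by the difference of both log2 changes. Atf4 and Chac1 had a lower dex effect at 36 h, and 0 members had a higher one. These are 2 of 35 lower, against 1.36% of all genes, and 0 of 35 higher, against 2.12%, in limma. An unadjusted p under 0.05 was reached by 9 of 35 members, against 3437 of all 19640 genes. Atf4 encodes the transcription factor through which PERK acts. Its quoted probe read 0.0012, -0.23, 0.02 and -0.06 in dex 36 h, against 0.09, 0.20, 0.22 and 0.13 in DMSO 36 h. It read 0.28, 0.36, 0.23 and 0.27 in dex 2 h, against 0.16, 0.04, 0.07 and 0.00023 in DMSO 2 h. On this probe dex arrays were thus all lower at 36 h and all higher at 2 h. The log2 changes were -0.23 ± 0.07 and 0.22 ± 0.07, neither of which passed alone. The difference was -0.44 ± 0.10 (limma adjusted p = 0.0344), and the other Atf4 probes gave -0.58 and -0.21 and did not pass. At 2 h these other probes gave log2 changes of 0.26 and -0.02, with overlapping groups. The difference did not pass with the mean over the Atf4 probes.

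Chac1 read 0.62, 0.61, 0.45 and 0.50 in dex 2 h, against 0.35, 0.32, 0.50 and 0.13 in DMSO 2 h. These groups overlapped, with a log2 change of 0.22 ± 0.09 (limma adjusted p = 0.394), beside the fall at 36 h given above. The difference was -0.55 ± 0.13 (limma adjusted p = 0.0394). Both calls ended with a replicate block and without single arrays. The adjusted p of Atf4 was 0.0555 to 0.0872 without any 1 dex 2 h array, DMSO 2 h replicate 2 or 3, dex 36 h replicate 1 or 4 or any 1 DMSO 36 h array. That of Chac1 was 0.0553 to 0.0989 without any 1 dex 2 h array, DMSO 2 h replicate 2, dex 36 h replicates 1 to 3 or DMSO 36 h replicate 1, 2 or 4. Several members that passed at 36 h had a difference of similar size that did not pass. Hyou1 had 0.59 ± 0.16, Cryab 0.50 ± 0.13, Hspb1 -0.57 ± 0.15 and Hspd1 0.43 ± 0.12, with adjusted p of 0.076, 0.0705, 0.0616 and 0.0857. Hspa8 and Hsph1 had differences of -0.03 (95% interval -0.29 to 0.23) and 0.14 (-0.14 to 0.42). The other Hspa8 probes gave differences of -0.29 (-0.54 to -0.04) and -0.19 (-0.48 to 0.09). Their adjusted p in limma were 0.281 and 0.569, so whether the Hspa8 effect was equal at both times is not settled.

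**Figure D4:**
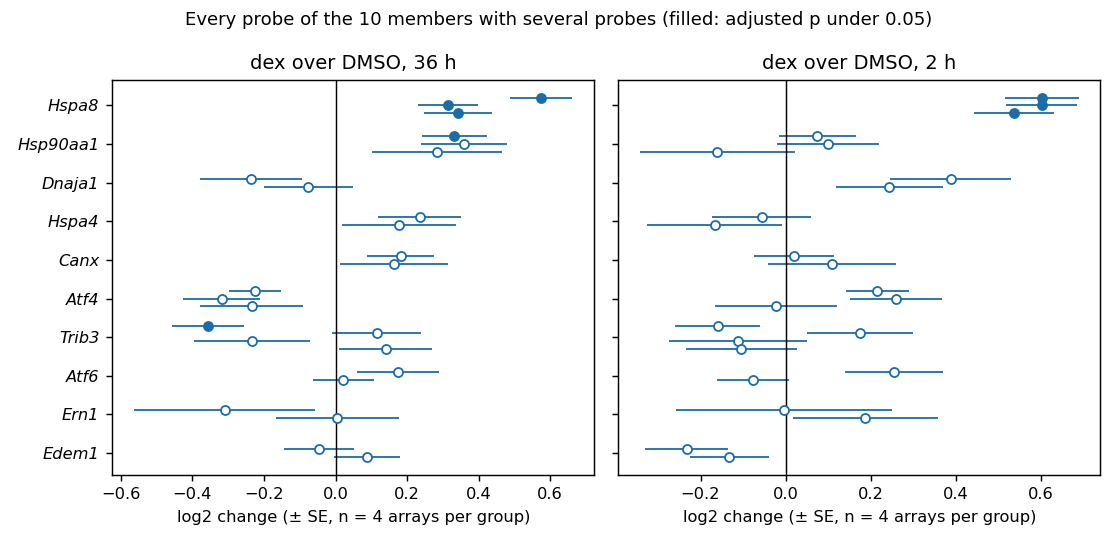
Log2 change of dex over DMSO for every probe of the 10 members with several probes, at 36 h (left) and 2 h (right); bars are ± 1 SE of the fitted difference, n = 4 arrays per group, and filled points have an adjusted p under 0.05. The 3 Hspa8 probes are filled at both times, whereas Trib3 has 1 filled probe of 4 at 36 h.

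The change over time was also read within each treatment; these comparisons share arrays with those above. In dex cells, Chac1 had the smallest adjusted p, with 36 h below 2 h by a log2 change of -0.67 ± 0.09 (limma adjusted p = 0.00164), and it passed without any single array. Atf4 was lower at 36 h by -0.35 ± 0.07 (limma adjusted p = 0.0266), on 2 of its 3 probes, and Dnajb1 by -0.84 ± 0.18 (limma adjusted p = 0.025). Dnajb1 read 0.11, 0.43, 0.17 and 0.12 in dex 2 h, so 3 of the 4 dex 36 h arrays were far below and replicate 2 at -0.05 was the closest. Hspa1b was higher in dex at 36 h than at 2 h by 0.41 ± 0.09 (limma adjusted p = 0.0372) and Hspa4 by 0.50 ± 0.12 (limma adjusted p = 0.0435), on 1 of its 2 probes. These are 2 of 35 members higher, against 1.04% of all genes, and 3 of 35 lower, against 1.41%. Leaving out 1 array left 1 to 7 members. Chac1 was the only one left without dex 2 h replicate 1, 3 or 4 or dex 36 h replicate 1, and Atf4, Chac1 and Dnajb1 were left without dex 36 h replicate 3 or 4 or DMSO 36 h replicate 1 or 2.

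In DMSO cells 0 members were higher at 36 h than at 2 h, against 0.27% of all genes, and 0 were lower, against 0.993%, in limma. An unadjusted p under 0.05 was reached by 4 of 35 members, against 2696 of all 19640 genes. The smallest adjusted p was that of Dnaja1, 0.0879, with a log2 change of 0.57 ± 0.14. It read 0.26, 0.24, 0.13 and 0.14 in DMSO 36 h, against -0.49, -0.82, -0.10 and -0.11 in DMSO 2 h. Its other probe gave 0.24, and it passed without DMSO 2 h replicate 3 or 4. Hyou1, Cryab and Dnajb1 were the other members with an unadjusted p under 0.05. In DMSO their log2 changes were -0.33, -0.28 and -0.38 (limma adjusted p = 0.251, 0.231 and 0.421). In dex, Hyou1 and Cryab changed over time by 0.26 and 0.22 (limma adjusted p = 0.325 and 0.331). The gap of these genes at 36 h thus holds shifts in both treatments, none of which passed.

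The compartments can be set side by side. Over the arrays of each group, the median log2 ratio of the 9 cytosolic genes was -0.04 to 0.12 in dex 36 h, against -0.18 to -0.05 in DMSO 36 h. The lowest dex array, at -0.041, lay barely above the highest DMSO array, at -0.046, and 6 of the 9 did not pass. For the 13 ER chaperones the median was -0.02 to 0.05 in dex 36 h, against -0.22 to -0.07 in DMSO 36 h, although 11 of the 13 did not pass. The median of the sensor and ATF4 group ran the other way, at -0.17 to -0.02 in dex 36 h, against 0.07 to 0.15 in DMSO 36 h. Of its 6 genes 4 did not pass, and Atf6 and Xbp1 had positive log2 changes of 0.17 and 0.02. Trib3 enters with the 1 of its 4 probes that passed. Hspd1 stood at 0.16 to 0.48 in dex 36 h, against -0.27 to -0.04 in DMSO 36 h. At 2 h the ER chaperone medians were -0.11 to 0.06 in dex, against -0.11 to 0.08 in DMSO, and the cytosolic ones -0.10 to 0.09 in dex, against -0.21 to -0.02 in DMSO, so these ranges overlapped. The quoted probes were chosen on these arrays, so the medians are a description.

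**Figure D5:**
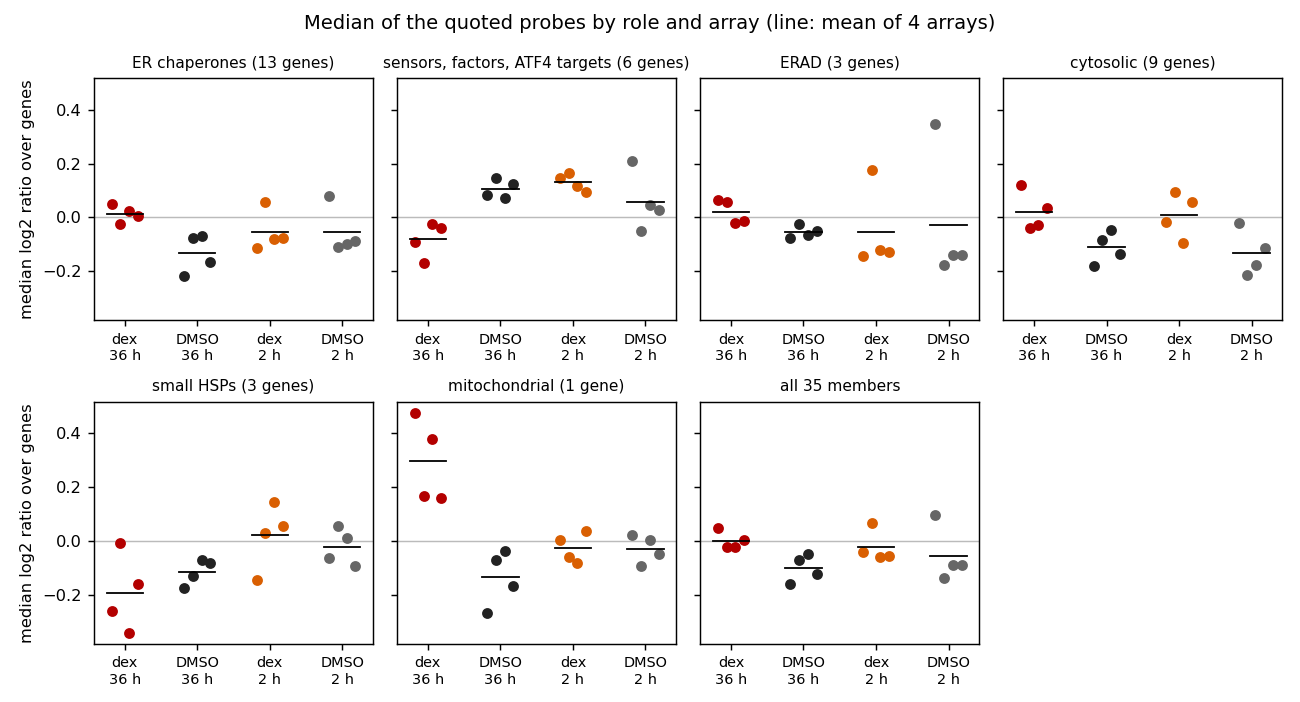
Median log2 ratio over the quoted probes of each role (vertical axis) in every array of dex 36 h, DMSO 36 h, dex 2 h and DMSO 2 h; points are arrays and lines are means of 4 arrays. At 36 h the dex arrays are higher for ER chaperones, for Hspd1 and, by a narrow gap, for cytosolic genes. They are lower for the sensor and ATF4 group, and at 2 h the ranges overlap for these roles.

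Other genes of the same pathways were read from lists of 141 measured genes. At 36 h, 22 passed as higher and 11 as lower, against the 6.88% and 4.96% of all genes given above, and at 2 h 5 were higher and 0 lower in limma. An unadjusted p under 0.05 in limma was reached by 59 at 36 h and 25 at 2 h. Over all 19640 genes it was reached by 5235 at 36 h and 2714 at 2 h. The cytosolic chaperonin TRiC, which folds actin and tubulin, had 4 of 14 genes of its list, which includes prefoldin, higher and 0 lower at 36 h in limma, with 5 at an unadjusted p under 0.05. Its subunit genes Cct2, Tcp1 and Cct5 had log2 changes of 0.62 ± 0.09, 0.38 ± 0.08 and 0.35 ± 0.09 (limma adjusted p = 2.58e-04, 0.00782 and 0.0231). Of the other mitochondrial chaperones and proteases, 3 of 16 were higher and 1 lower. Lonp1, the matrix protease, rose by 1.02 ± 0.14, Htra2, an intermembrane protease, by 0.46 ± 0.08, and Dnaja3, a matrix HSP40, by 0.35 ± 0.07 on the log2 scale. Of the other cytosolic chaperones, 3 of 34 were higher and 2 lower, with Hspa12a, a distant HSP70 relative, at 0.84 ± 0.12, the HSP40 Dnajb4 at -0.55 ± 0.11 and the small heat shock gene Hspb7 at -0.41 ± 0.10.

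Of 25 other ER folding and import genes, 3 were higher and 3 lower at 36 h. Serpinh1, the collagen chaperone HSP47, had a log2 change of -0.60 ± 0.08 (limma adjusted p = 1.60e-04). The thioredoxin-like isomerase Txndc5 and the ER oxidase Ero1a had 0.37 ± 0.08 and 0.45 ± 0.11. Of 17 other ERAD genes, 4 were higher and 2 lower, among them the ubiquitin-conjugating enzymes Ube2j1 at 0.63 ± 0.09 and Ube2g2 at 0.64 ± 0.11, and Herpud2, a relative of Herpud1, at 0.36 ± 0.07. Of 23 other PERK and ATF4 genes, 3 were higher and 3 lower. Mthfd2, a mitochondrial folate enzyme, had a log2 change of 1.88 ± 0.15 and the lipoprotein receptor gene Vldlr 1.62 ± 0.10, whereas Atf5, a transcription factor of the ATF4 family, had -0.60 ± 0.08. Creb3 and Nfe2l1, ER membrane-bound transcription factors, were the 2 of 12 other transducers that passed, at 0.26 ± 0.08 and 0.24 ± 0.07.

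At 2 h the 5 that passed were Ube2g2 at 0.99 ± 0.11, Vldlr at 1.26 ± 0.10, Mthfd2 at 0.74 ± 0.15, Hspa12a at 0.49 ± 0.12 and Eif2ak3, the gene of PERK, at 0.41 ± 0.10 (log2 change, SE; limma adjusted p = 5.09e-05, 2.40e-06, 0.0138, 0.0411 and 0.0418). The dex effect was higher at 36 h than at 2 h for Mthfd2, Ahsa1, Cct2 and Lonp1 and lower for Serpinh1, Atf5 and Dnajb4.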

How the data were processed

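RNA of 3T3-L1 cells treated with dex or DMSO for 36 or 2 h was measured on 16 two-colour arrays, with sample in Cy5 and pool in Cy3 per the labels. Dyes were coupled to amino allyl cDNA made from kit-purified total RNA, per the labels' protocols. Each deposited value is the log of sample over pool and was read as log2; its base, background correction and normalization are not stated in the sources used here, and limma is named without a version per the submitters' processing notes. No further normalization was applied, and 131 missing values, none of them in a member's probe, stayed missing. Signal over background is unknown, as no scanner intensities were used, so array number and noise set the precision.

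Symbols came from the platform annotation, and 29456 of 38467 probes named 1 gene. With limma 3.58.1 in R 4.3.3, lmFit and eBayes fitted the means of the 4 groups (12 residual and 3.19 prior degrees of freedom), and p-values were adjusted by Benjamini-Hochberg over 38467 probes per contrast. The quoted probe of a gene is the one whose moderated F test over both dex contrasts had the smallest p. Its SE rests on 1 variance per probe over all arrays, which understates the spread at 2 h and overstates that at 36 h; on data simulated with each array's own spread, the test called no planted change in the wrong direction but called more unchanged probes at 2 h than its threshold allows, and few at 36 h. The 95% intervals are unadjusted. Members, pathway lists and tests were chosen with earlier results of these data known. Every member is named; from each other list up to 3 passing genes with the smallest adjusted p per time are named. Replicate numbers were not used to pair the arrays in the main fit. Over all groups, 5 of 24 same-number pairs of arrays correlated above 0.1 in their deviations from the group means. In 7 of 24 comparisons of an array with another group's arrays, the same number correlated best. Between dex and DMSO at 36 h the mean correlation was 0.117 for the same number and -0.039 for other numbers. At 2 h these were 0.096 and -0.036. Deviations cancel within a group, so the mean for other numbers is tied to that for the same number and is no separate contrast. Same-number pairs of dex and DMSO ran from -0.075 to 0.344 at 36 h and from -0.103 to 0.255 at 2 h. A fit with a replicate block is among the alternatives. Promoters are RefSeq's, on GRCm38.p6. Alternatives were quantile normalization, scaling to equal median absolute deviation (MAD), the mean over a gene's probes, a fit of only the arrays compared, array weights, robust moderation, the submitters' log-odds rule, probes without missing values, current symbols, the replicate block and leaving out each array.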

Additional observations from a re-analysis of the deposited data

Results flagged for a closer look

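Among the quoted probes of the 35 members, 140 groups of 4 arrays were examined for a single array far from the other 3, which chance gives in about 1 in 20 groups, and 6 had one. Hyou1 read -0.23 in DMSO 36 h replicate 4, with the others at -0.07 to -0.04. Sdf2l1 read -0.15 in DMSO 2 h replicate 4, with the others at 0.13 to 0.19. Herpud1 read 0.31 in DMSO 2 h replicate 1, with the others at -0.17 to -0.14. Sel1l read 0.18 in dex 2 h replicate 2, with the others at -0.14 to -0.12. Dnaja1 read 0.27 in dex 2 h replicate 2, with the others at -0.11 to -0.05. Dnajb1 read 0.24 in DMSO 2 h replicate 1, with the others at 0.03 to 0.04. Of the 6, 5 lie at 2 h, where the arrays were noisier.

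The dex effect differed between 36 h and 2 h for Atf4, by -0.44 on the log2 scale, and for Chac1, by -0.55, in the limma test of that difference (adjusted p = 0.0344 and 0.0394). Both calls end with a replicate block and when any of several arrays is left out, and the values without single arrays are given with the comparison.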

How the results depend on the processing

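Of 518 values of the 20 called single-gene results under 26 alternatives, 386 stayed past the threshold, 132 lost it and 0 changed direction. The current symbols reuse the main fit and could not change a single-gene result. The log-odds rule reuses the main log2 changes and could not change a direction. At 36 h, where 10 members passed, array weights gave 23, the log-odds rule 4 and leaving out 1 array 5 to 12. At 2 h, where 3 passed, fitting only the arrays compared and the log-odds rule each gave 1, and leaving out 1 array 1 to 3. For the difference between times, where 2 passed, quantile normalization, MAD scaling and array weights each gave 6, the log-odds rule 0 and leaving out 1 array 0 to 3. For dex at 36 h against 2 h, where 5 passed, fitting only the arrays compared gave 2, array weights 15 and leaving out 1 array 1 to 7. For DMSO at 36 h against 2 h, where 0 passed, quantile normalization and MAD scaling gave 1 (Dnaja1) and leaving out 1 array 0 to 1. With a replicate block, 7 members passed at 36 h, 2 at 2 h, 0 for the difference, 4 for dex over time and 0 for DMSO over time. The cause of these shifts was not tested. Signal over background is unknown, so a dim probe cannot be told from an unchanged gene.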

Other observations

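The annotation gave 2 further probes to a member together with another gene, and these were left out above. The probe shared by Hspd1 and its pseudogene Hspd1-ps3 had a log2 change of 0.39 ± 0.10 at 36 h (SE, n = 4 arrays per group, limma adjusted p = 0.022) and of 0.03 ± 0.10 at 2 h (adjusted p = 0.952), beside 0.43 and 0.0036 for the probe of Hspd1 alone. The probe shared by Dnaja1 and Gm7816 had -0.35 ± 0.11 at 36 h (limma adjusted p = 0.057) and -0.15 ± 0.11 at 2 h (adjusted p = 0.682), beside -0.24 and 0.39 for the quoted Dnaja1 probe. At 2 h the Dnaja1 probes therefore differ in sign, and which transcript each one measures was not tested.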
